A study of Mus musculus with 16 samples.

Results

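The 4 names described here are the mature arms of the miR-298 and miR-296 hairpins of the mouse Gnas region: miR-298-5p, miR-298-3p, miR-296-5p and miR-296-3p. They were taken by name from tables that list 2274 miRNA names after merging of duplicate names, and all 4 were among the 807 names with enough reads for a test. The pair was chosen by its measured read counts, in which tKO clone 2 was already known to stand below the other lines. Levels, arm ratios and lengths per line, replicate and medium are therefore given as descriptions without a test, and the fold changes printed below support nothing by themselves.

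A miRNA is cut from a hairpin transcript as a short duplex, and either strand of it, called the 5p or the 3p arm, can be loaded into Argonaute. Pairing to target RNAs rests mainly on the seed, bases 2 to 8 counted from the 5′ end. Mir298 and Mir296 lie near the imprinted Gnas and Nespas transcripts, in a region where several RNAs are made from a single parental allele. miR-296 has been studied in endothelial and embryonic stem cells.

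The precursors are printed first, because the distance between them and the order of their arms bear on whether they are read out together. Sequences are from RefSeq (GRCm38.p6), both hairpins are on the minus strand, and capitals mark the mature arms, 5p before 3p. Mir298 (ENSMUSG00000065410.1) lies at chr2:174267504-174267585 and Mir296 (ENSMUSG00000065521.1) at chr2:174267047-174267125, with 378 bases between them.
Mir298: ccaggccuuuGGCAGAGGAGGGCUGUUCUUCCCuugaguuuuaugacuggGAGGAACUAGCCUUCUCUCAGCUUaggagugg
Mir296: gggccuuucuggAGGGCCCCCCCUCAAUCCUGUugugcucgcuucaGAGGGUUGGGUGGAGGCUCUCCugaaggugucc
In the GENCODE M21 annotation of the same assembly no other gene overlaps either hairpin. The antisense gene Nespas, on the same strand as the hairpins, ends 13651 bases from Mir298, and Gnas, on the plus strand, starts 16734 bases from it. Neither hairpin is therefore annotated as exonic, intronic or UTR sequence of a host gene in that release.

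The mature arms follow with their seeds in capitals, because reads that start at another base carry another seed. All 4 matched the RefSeq table by name.
miR-298-5p: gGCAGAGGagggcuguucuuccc
miR-298-3p: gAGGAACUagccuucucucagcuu
miR-296-5p: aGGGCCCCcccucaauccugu
miR-296-3p: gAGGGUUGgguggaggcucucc
The seeds differ among the 4 arms. None of the 1811 mature sequences of the table shared a seed with any of them.

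The cells were C2C12, mouse myoblasts that form multinucleated myotubes in low serum, and are labelled PAX7 NEG. Control cells were wild type and came as populations 1 and 2. The other cells, a triple knockout (tKO) with miR-1a-1, miR-1a-2 and miR-206 deleted, came as clones 1 and 2, so that each tKO line is a single clone. Each line was grown in medium with 20% FBS (GM) or differentiated for 3 days with 2% HS (DM3), and each of the 4 groups held 2 lines with 2 replicates each. Tests between lines measure the spread of replicate cultures of a line only, and a property of 1 clone cannot be told apart from an effect of the deletions that is seen in that clone alone.

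Reads listed per library ran from 112792 to 6543570. The tKO DM3 library of clone 1, replicate 1, stood apart: it was the shallowest, 45.1% of its reads matched a hairpin of their miRNA, and 18.9% were shorter than 18 nt. In the other DM3 libraries the matched share was 65.9% to 86.7%, and in GM it was 80.1% to 88.6%. The targeted miR-206-3p, the muscle miRNA deleted in tKO, stood at 837 to 1466 CPM (reads scaled to a library total of 1000000 listed reads) in control GM and 0.808 to 15.5 CPM in tKO GM. In DM3 it stood at 19950.5 to 57442 CPM in control and 0.960 to 70.9 CPM in tKO, which went against no label. Of 8 muscle miRNAs taken as markers, 8 had reads in control GM and 7 in control DM3, where miR-208b-3p was at 0.

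The main pattern was a difference between the tKO clones. In clone 2, miR-298-5p, miR-296-5p and miR-296-3p stood 3.71-fold to 22.8-fold below clone 1, taking every clone 1 library against every clone 2 library of the same medium with over 3 reads of the arm. Between the control populations the same ratios ran from 0.695 to 4.06. miR-298-3p, the passenger arm of miR-298, was scarce in every line.

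miR-298-5p was the most abundant arm. In control GM it stood at 691 and 432 CPM in population 1 (replicates 1 and 2) and at 564 and 444 CPM in population 2. In control DM3 it stood at 1049 and 546 CPM in population 1 and at 786 and 583 CPM in population 2. In tKO clone 1 it was 365 and 385 CPM in GM and 426 and 434 CPM in DM3. By CPM clone 1 thus lay below the control cells in each medium.
In clone 2 miR-298-5p was 42.7 and 23.03 CPM in GM and 62.4 and 30.8 CPM in DM3, so the highest clone 2 library lay well below the lowest of the other 12 libraries, at 365 CPM. These values rest on 46 to 140 reads per clone 2 library, and their Wilson 95% intervals, which cover counting error only, ran from 19.5 to 83.3 CPM at the extremes. Over all combinations of libraries clone 1 exceeded clone 2 by 8.54-fold to 16.7-fold in GM and by 6.82-fold to 14.1-fold in DM3. The ratio of population 1 to population 2 was 0.695 to 1.80. The mean was 402 ± 32.7 CPM in clone 1 and 39.8 ± 17.2 CPM in clone 2 (SD, n = 4 each), and 637 ± 204 CPM in the control libraries (SD, n = 8).

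miR-296-5p followed the same order. It stood at 211 and 129 CPM in GM in population 1 and at 111 and 119 CPM in population 2, and in DM3 at 411 and 121 CPM and at 123 and 101 CPM. In clone 1 it was 51.7 and 95.4 CPM in GM and 159.6 and 55.4 CPM in DM3. In clone 2 it was 7.77 and 6.17 CPM in GM and 14.9 and 7.92 CPM in DM3. Every clone 2 library lay below every other library, and over all combinations clone 1 exceeded clone 2 by 6.65-fold to 15.5-fold in GM and by 3.71-fold to 20.1-fold in DM3. The ratio of population 1 to population 2 was 1.09 to 1.90 in GM and 0.982 to 4.06 in DM3, so that for this arm the ranges were apart in GM and overlapped in DM3. The largest value, 411 CPM, came from the shallowest control library, of 247964 reads, and the other 3 control DM3 libraries stood at 101 to 123 CPM.

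miR-296-3p, the other arm of the same hairpin, gave the largest ratio. It stood at 265 and 204 CPM in GM in population 1 and at 239.7 and 174 CPM in population 2, and in DM3 at 262 and 134 CPM and at 128 and 104 CPM. In clone 1 it was 139.8 and 167 CPM in GM and 17.7 and 86.1 CPM in DM3. Clone 2 again held the lowest values, 12.8 and 7.34 CPM in GM and 12.2 and 4.62 CPM in DM3.
The clone 1 DM3 library of replicate 1 had only 2 reads of miR-296-3p, fewer than the 3 reads (26.6 CPM) taken as the smallest amount its depth can show. No ratio is given for that library. Over the other combinations clone 1 exceeded clone 2 by 10.9-fold to 22.8-fold in GM and by 7.05-fold to 18.6-fold in DM3, and the ratio of population 1 to population 2 was 0.851 to 2.53.

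**Figure D1:**
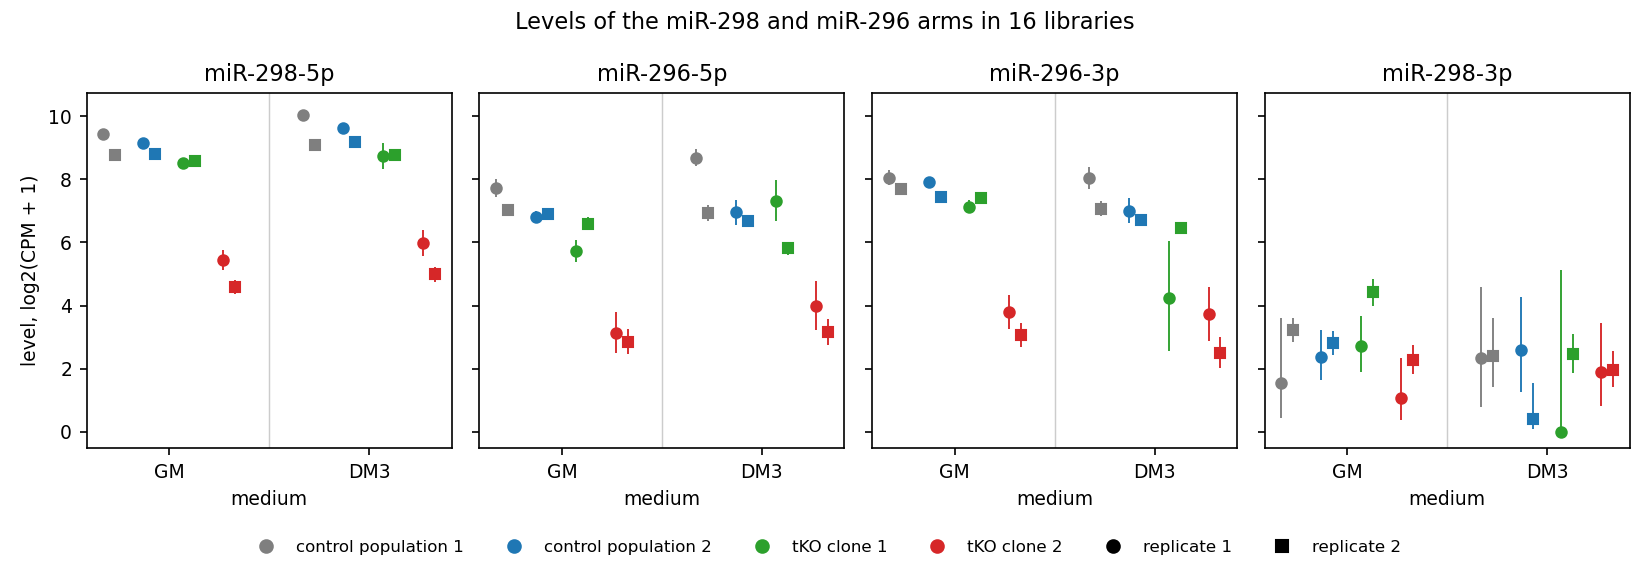
Levels of the 4 arms in all 16 libraries as log2(CPM + 1), by medium; colours are lines, circles replicate 1, squares replicate 2, and bars Wilson 95% intervals of the counts. Clone 2 (red) lies lowest for miR-298-5p, miR-296-5p and miR-296-3p in both media, but for miR-296-3p in DM3 the interval of the shallow clone 1 library overlaps it; miR-298-3p is scarce in every line.

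In the edgeR quasi-likelihood fit over all 807 names, the log2 fold change of clone 2 against clone 1 was -3.16 (SE 0.38) for miR-298-5p. For miR-296-5p it was -3.02 (SE 0.46), and for miR-296-3p -3.26 (SE 0.49). Counted from the lowest fold change of the 807 names these were ranks 3, 4 and 2. miR-298-3p stood at -1.09 (SE 0.66), rank 119. Over 23 processing settings its value ran from -1.59 to 1.88, lower in clone 2 in 22 of them and called in 0. Under a Benjamini-Hochberg adjusted p of 0.05, 11 names (1.36%) were called in this comparison, 5 of them lower in clone 2 (0.62%), and 3 of these 5 were the abundant arms. Since the pair was chosen with this difference known, the count describes it and tests nothing.
The same comparison of the control populations called 0 names by edgeR and 0 by DESeq2, with 32 names at an unadjusted p under 0.05. There miR-298-5p stood at 0.09 (SE 0.34), miR-296-5p at -0.60 (SE 0.41), miR-296-3p at -0.20 (SE 0.43) and miR-298-3p at -0.80 (SE 0.78). The median of all names in the clone comparison was -0.25 on the log2 scale with TMM, -0.50 with total counts and -0.18 with DESeq2 size factors. The pair was chosen with its difference known, so the distance of its arms from this median tests nothing.
By CPM, 3 of the 4 arms had every clone 2 library below every clone 1 library, as had 2.23% of the 807 names. For miR-296-3p this includes the clone 1 DM3 library with 2 reads, whose 17.7 CPM has a Wilson 95% interval of 4.86 to 64.7 CPM that overlaps the 12.2 CPM (6.43 to 23.2) of clone 2; the next clone 1 library stood at 86.1 CPM. A smaller share of cells with the transcript and less transcript per cell cannot be told apart in these bulk libraries.

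**Figure D2:**
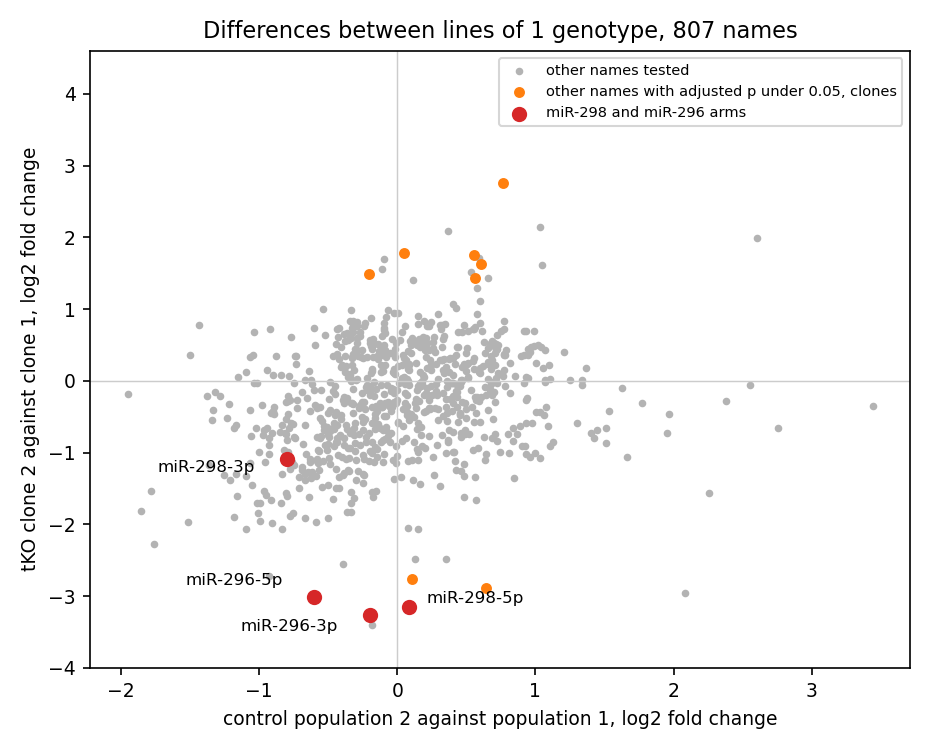
Log2 fold changes of 807 names between lines of the same genotype: control population 2 against population 1 on the x axis, tKO clone 2 against clone 1 on the y axis. miR-298-5p, miR-296-5p and miR-296-3p (red) lie between -3.26 and -3.02 on the y axis and between -0.60 and 0.09 on the x axis; orange points are the 8 other names called between the clones.

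The other 8 names called between the clones, named after their values were seen, were miR-676-3p and miR-341-5p, lower in clone 2, and miR-34c-5p, miR-34b-3p, miR-99a-5p, miR-181b-5p, miR-181a-5p and miR-146a-5p, higher in clone 2. The 2 lower ones differed from the Gnas arms in the level of the control cells. miR-676-3p stood at 49.1 ± 24.8 CPM in clone 1 and 4.98 ± 4.05 CPM in clone 2, with 6.10 ± 2.69 CPM in control, so that clone 1 was the line apart. miR-298-5p, by contrast, stood apart in clone 2. Muscle markers summed to 133 to 665 CPM in clone 1 and 188 to 1353 CPM in clone 2, and the 6 neuronal or endocrine markers, of which miR-124-3p was at 0, to 1312 to 18223 CPM and 1483 to 7329 CPM. The ranges overlap, and their part in the difference was not tested.

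By CPM clone 1 was itself mostly below the control cells, by less. For miR-298-5p both clone 1 libraries lay below all 4 control libraries in each medium, at 365 to 385 against 432 to 691 CPM in GM and at 426 to 434 against 546 to 1049 CPM in DM3. For miR-296-3p the clone 1 libraries were likewise below the control range in each medium, but the Wilson 95% intervals of the nearest libraries overlapped. These were 150 to 187 CPM in clone 1 against 164 to 185 CPM in control in GM. In DM3 they were 76.4 to 97.0 against 92.7 to 115.8 CPM, and the other clone 1 DM3 library had 2 reads. For miR-296-5p clone 1 was below the control range in GM only. In DM3 its range, 55.4 to 159.6 CPM, overlapped that of control, 101 to 411 CPM. How many of all names separate clone 1 from control in this way was not counted, so the ranges describe levels only.

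Compared as groups, with both clones together, none of the 4 arms passed the test between tKO and control. This test also takes each library as a unit, although each group holds 2 lines with 2 replicates each. In GM the log2 fold change of tKO against control was -1.52 (SE 0.75) for miR-298-5p, -2.02 (SE 0.77) for miR-296-5p, -1.60 (SE 0.79) for miR-296-3p and 0.17 (SE 0.63) for miR-298-3p. In DM3 it was -1.74 (SE 0.76), -1.92 (SE 0.81), -2.24 (SE 0.84) and 0.46 (SE 0.88) in the same order. edgeR and DESeq2 called 0 of the 4 arms in either medium. At an unadjusted p under 0.05 edgeR had 1 arm in GM (miR-296-5p) and 3 in DM3 (all but miR-298-3p), and DESeq2 had 3 in each. Of the 807 names, edgeR had 65 in GM and 90 in DM3 at this threshold, and DESeq2 had 74 and 100. Over all names edgeR called 1.12% in GM (0.62% lower and 0.496% higher in tKO) and 0.867% in DM3 (0.496% lower and 0.372% higher).
By CPM every tKO library lay below every control library for miR-298-5p, miR-296-5p and miR-296-3p in GM. In DM3 this held for miR-298-5p and miR-296-3p. Over all names the share was 4.09% in GM and 2.23% in DM3. Without the shallow clone 1 library the DM3 fold change of miR-296-5p was -2.63 and was called. That fit called 53 of 860 names, against 7 of 807 with all libraries. Without the other clone 1 DM3 library the DM3 fold change of miR-296-3p was -3.98 and was called. No omission of a single library called more than 53 names in DM3. Both fits keep a single clone 1 DM3 library beside those of clone 2, where these arms were known to be low.

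Between GM and DM3 none of the 4 arms passed the test. In control cells the log2 fold change of DM3 against GM was 0.05 (SE 0.73) for miR-298-5p, -0.09 (SE 0.74) for miR-296-5p and -0.95 (SE 0.79) for miR-296-3p. In tKO cells the 3 values were -0.16 (SE 0.74), 0.02 (SE 0.80) and -1.60 (SE 0.82). miR-298-3p stood at -1.56 (SE 0.82) in control and -1.27 (SE 0.70) in tKO.
edgeR and DESeq2 called 0 of the 4 arms in either genotype, and at an unadjusted p under 0.05 edgeR had 0 and DESeq2 had 1 (miR-296-3p in tKO). At this threshold edgeR had 314 of the 807 names in control and 262 in tKO, and DESeq2 had 329 and 281. Of all names edgeR called 27.6% in control (11.8% lower and 15.9% higher in DM3) and 19.7% in tKO (8.3% lower and 11.4% higher). These fits have 1 coefficient per group, so the difference between the clones enters their error. The difference of the 2 differentiation effects was called for 0 of the 807 names by edgeR (0%) and for 0 by DESeq2, with 37 names at an unadjusted p under 0.05. Without the clone 1 DM3 library of replicate 2, the tKO value of miR-296-3p became -3.31 and was called; what then remains of clone 1 in DM3 is the library with 2 reads of this arm.
Each line was grown in both media, and within lines the media were compared after the data were seen. The mean CPM of miR-296-3p was lower in DM3 in all 4 lines, and its DM3 library was the lower in 14 of 16 combinations of libraries within a line. How many of all names show this was not counted, so it describes the arm only. With a coefficient per line and medium, edgeR gave miR-296-3p a log2 fold change of -0.97 (SE 0.44, adjusted p 0.11) in control and -1.13 (SE 0.47, adjusted p 0.11) in tKO. It called 0 of the 4 arms, against 28.6% and 19.1% of all names. At an unadjusted p under 0.05 it had 2 arms in control (miR-296-3p and miR-298-3p) and 1 in tKO (miR-296-3p). Of the 807 names it had 320 in control and 252 in tKO at this threshold. Over 21 settings of this fit the adjusted p of miR-296-3p ran from 0.042 to 0.40 in control and from 0.010 to 0.39 in tKO. It was called in control without either clone 1 DM3 library, and in tKO, at -2.10, without that of replicate 2. miR-298-3p was called in control, at -2.51, without the population 2 DM3 library of replicate 1.
By CPM miR-298-5p was higher in DM3 in the mean of all 4 lines and in 14 of 16 combinations, again without a count over all names. The fitted value was 0.05 (SE 0.34) in control and 0.04 (SE 0.35) in tKO with TMM, and 0.47 and 0.34 with total counts, where the median of all names was 0.35 and 0.21.

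The ratio of the 5p arms in clone 2 lay within that of the other lines. Reads of miR-298-5p outnumbered those of miR-296-5p by 2.55-fold to 7.83-fold over the 16 libraries, with a median of 4.11. In clone 2 the ratio was 5.50 and 3.73 in GM and 4.18 and 3.89 in DM3 (replicates 1 and 2), inside the range of the other lines. Both arms of miR-296 and the 5p arm of miR-298 were thus low together in clone 2.
For miR-298 nearly all reads were on the 5p arm, 85.7% to 100% of the reads listed for the hairpin and 98.6% to 100% of those that matched it. The lowest listed share, 85.7%, came from clone 2 in GM, replicate 2, where 23 reads were listed as miR-298-3p and 1 of them matched the hairpin.

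miR-296 used both arms, and the 3p share ranged lower in DM3 than in GM. The 3p arm made up 54.3% to 73.0% of miR-296 reads in the 8 GM libraries, with a median of 61.7%. In the 8 DM3 libraries it made up 10% to 60.9%, with a median of 47.8%. In each of the 4 lines both DM3 libraries lay below both GM libraries, but in the clones this rests on few reads or on a small difference.
In population 1 the 3p share was 55.7% and 61.2% in GM and 38.9% and 52.5% in DM3 (replicates 1 and 2), and in population 2 it was 68.3% and 59.4% against 51.0% and 50.6%. In clone 1 it was 73.0% and 63.7% against 10% and 60.9%, and in clone 2 62.2% and 54.3% against 45.0% and 36.8%. The value of 10% (Wilson 95% interval 2.79% to 30.1%) is that of the shallow library, with 20 miR-296 reads; without it the lowest DM3 share was 36.8%. The other clone 1 DM3 library, at 60.9% (56.2% to 65.3%), overlapped in its interval with the clone 1 GM library at 63.7% (59.4% to 67.7%). In clone 2 the DM3 intervals, 25.8% to 65.8% and 25.5% to 49.8%, overlapped with those in GM, 46.1% to 75.9% and 43.5% to 64.7%. The share of hairpin-matched reads ran from 45.1% to 86.7% in DM3 and from 80.1% to 88.6% in GM, and it was lower in DM3 in 6 of 8 combinations of line and replicate. The other 2 were replicate 2 of clone 1, at 83.4% in DM3 against 80.1% in GM, and of clone 2, at 86.7% against 86.6%; the part of it in the arm balance was not tested. Counted on hairpin-matched reads only, the mean 3p share was 64.0 ± 6.75% in GM and 45.1 ± 16.2% in DM3 (SD, n = 8 each).

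**Figure D3:**
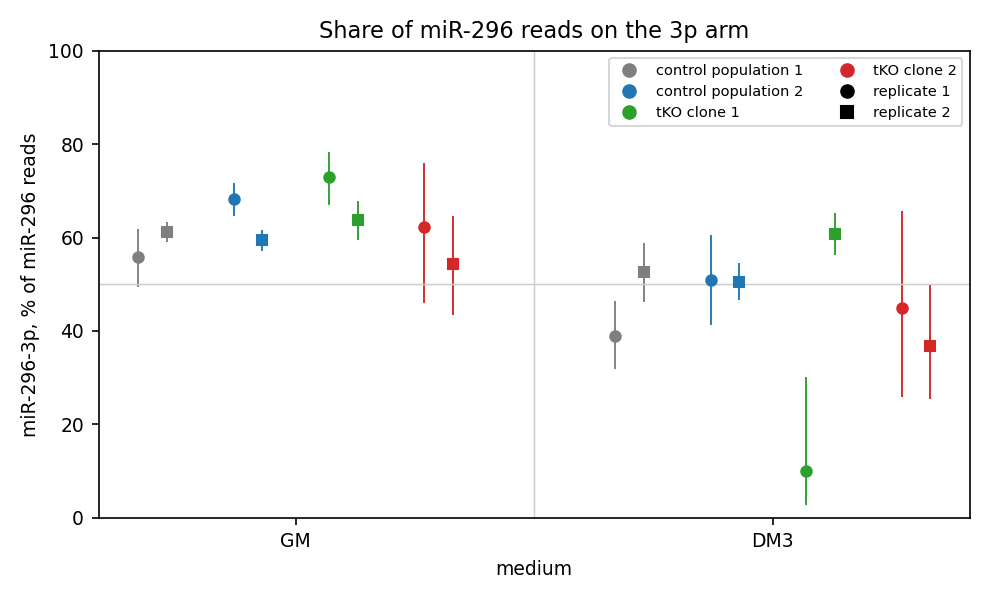
Share of miR-296 reads on the 3p arm in each library by medium, with Wilson 95% intervals; colours are lines and symbols replicates. GM libraries lie at 54.3% to 73.0% and DM3 libraries at 10% to 60.9%, the lowest being the library with 20 miR-296 reads.

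Most reads listed as miR-298-3p did not match its hairpin at the arm. Of 203 reads listed under the name in all libraries, 130 (64.0%) carried a mismatch, and 97 (47.8%) were a single 13-nt sequence that the Mir298 hairpin does not contain. It is shown beside the most frequent read that does match the hairpin, because the level of this name turns on which of them is counted.
13-nt read: tttaagactggga
hairpin-matched read: aggaactagccttctctcagct
The matched read starts at the second base of the RefSeq arm and was seen 22 times. Reads with this start numbered 52, against 5 at the RefSeq start. In all, 62 reads matched the hairpin within 3 bases of the arm's start.
Hairpin-matched reads numbered 0 and 22 (replicates 1 and 2) in population 1 and 5 and 17 in population 2 in GM, and 0 and 1, and 1 and 1, in DM3. Clone 1 had 3 and 4 in GM and 0 and 6 in DM3. Clone 2 had 1 and 1 in GM and 0 and 0 in DM3, in libraries whose 3-read limits were 0.501 to 4.07 CPM. Pooled over its 4 libraries of both media, clone 1 had 13 such reads, or 2.02 CPM (Wilson 95% interval 1.18 to 3.46), and clone 2 had 2, or 0.153 CPM (0.0420 to 0.558). No ratio is given over 2 reads. Population 1 stood at 3.19 CPM and population 2 at 2.03 CPM. These pooled values were computed after the listed levels were seen and carry no test.

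Pooled over libraries, the lengths of the abundant arms peaked at the same nucleotide in the control cells and in each clone. In hairpin-matched reads miR-298-5p peaked at 21 nt, with 32.0% of reads in control, 30.8% in clone 1 and 37.0% in clone 2, followed by 22 nt at 26.4%, 26.03% and 22.01%. The RefSeq form of 23 nt made up 18.6%, 16.6% and 16.4%. miR-296-5p was nearly uniform, with 76.3% of reads at 21 nt in control, 78.2% in clone 1 and 72.5% in clone 2. miR-296-3p peaked at 20 nt, at 36.5%, 37.3% and 32.9%. The clone 2 values rest on 359, 80 and 79 reads. By medium, with lines pooled, the peaks were at the same lengths but their shares differed. For miR-296-3p the peak held 46.7% in DM3 and 34.6% in GM in control, and 42.1% and 34.1% in tKO. For miR-298-5p these shares were 28.7% and 33.4%, and 28.2% and 35.5%. For miR-296-5p they were 80.3% and 75.1%, and 78.6% and 75.9%. These differences were not tested. Single libraries with few reads peaked elsewhere. miR-298-5p peaked at 22 nt in the replicate 1 DM3 libraries of population 1, clone 1 and clone 2, with 244, 43 and 42 reads, and miR-296-3p at 19 nt in the clone 2 GM library of replicate 2, with 37 reads.

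**Figure D4:**
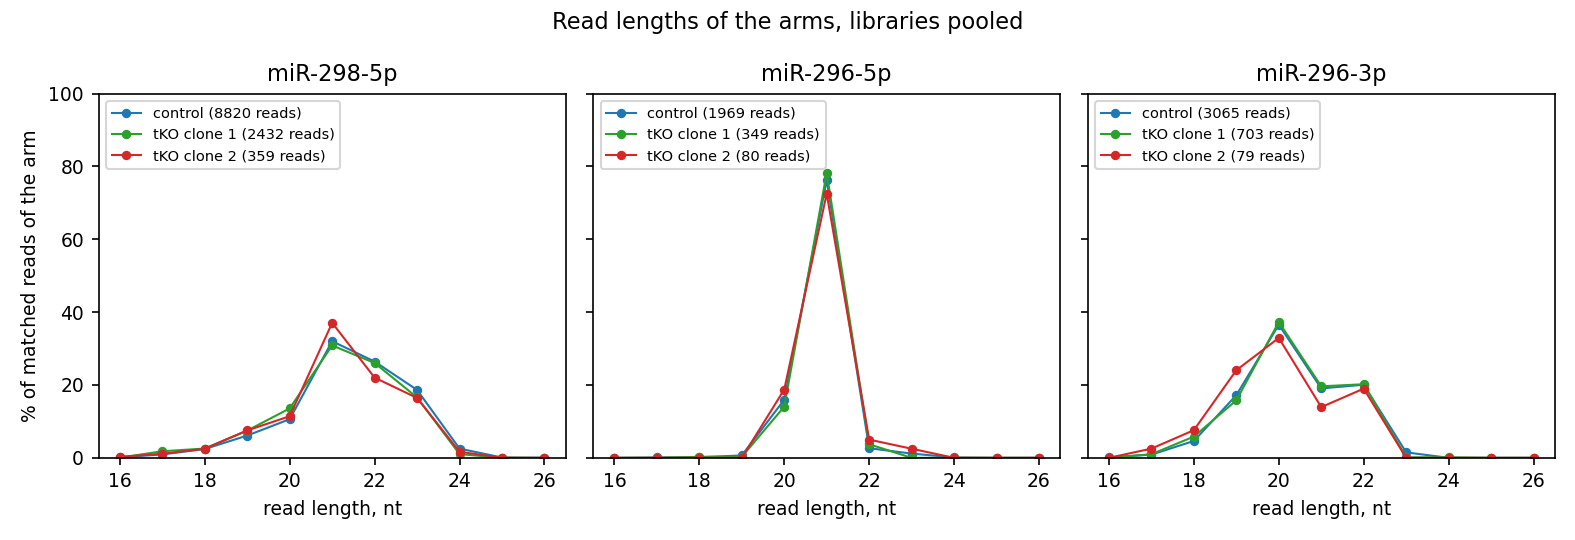
Read lengths of the 3 abundant arms, as the percent of hairpin-matched reads of each arm with the libraries of control, clone 1 and clone 2 pooled. The peaks are at 21 nt for miR-298-5p and miR-296-5p and at 20 nt for miR-296-3p in all 3 sets.

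Some reads started at another base and so carried another seed. For miR-298-5p, 86.8% of 12545 reads started at the RefSeq base and 5.56% started 2 bases later. In control cells the shifted share was 3.78% to 5.23% in GM and 5.11% to 8.70% in DM3, ranges that overlap. In tKO cells it was 1.19% to 5.80% in GM and 6.52% to 10.7% in DM3. The nearest of these, 8 of 138 reads in GM (Wilson 95% interval 2.97% to 11.02%) and 3 of 46 reads in DM3 (2.24% to 17.5%), overlap in their intervals, both in clone 2. The most frequent shifted read is shown beside the unshifted one; positions 2 to 8 of the former spell the seed of miR-7086-5p, a miRNA at 0.331 CPM on average.
miR-298-5p, main start: ggcagaggagggctgttcttc
miR-298-5p, start 2 bases later: cagaggagggctgttcttc
For miR-296-3p, 73.3% of 4275 reads started at the RefSeq base and 16.7% started 1 base later. The later start made up 16.4% of pooled reads in control, 18.3% in clone 1 and 14.4% in clone 2 (Wilson 95% intervals 15.1% to 17.6%, 15.7% to 21.1% and 8.80% to 22.8%), which overlap.

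miR-296-5p had a frequent variant at its first base. The substitution A1G, counted from 1 at the 5′ end of the RefSeq arm, was carried by 357 of 2917 reads (12.2%), outside the seed. It made up 9.82% to 14.7% in the 8 control libraries and 5.56% to 24.1% in the 4 clone 1 libraries. In clone 2 it was carried by 0 of 14 and 0 of 37 reads in GM and by 2 of 11 and 6 of 36 reads in DM3, with Wilson upper bounds of 21.5% and 9.41% for the 2 counts of 0. Pooled, this was 8.16% in clone 2 (Wilson 95% interval 4.19% to 15.3%) and 11.8% in control (10.6% to 13.2%), intervals that overlap.
A further 59 reads (2.02%), in 8 libraries, ran from the start of the 5p arm through the loop. The longer form, seen 42 times, is shown because it ends at the base just before the 3p arm.
miR-296-5p with loop, 34 nt: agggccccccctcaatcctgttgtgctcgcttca
With the form shorter by 1 base it made up 46 of 1811 miR-296-5p reads in control GM (2.54%) and 3 of 566 in control DM3 (0.530%).

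Non-templated bases at the 3′ end, which nucleotidyltransferases add after the hairpin is cut, were not used to choose the pair, and their share was tested. For miR-298-5p the share of reads with such bases was 32.8 ± 2.25% in control GM and 30.8 ± 3.44% in tKO GM, and 32.7 ± 3.73% and 29.5 ± 2.83% in DM3 (SD, n = 4 each). tKO minus control was -2.02 percentage points in GM, where the exact permutation test (two-sided) gave p = 0.371 (adjusted over 3 tests 0.557), and -3.13 points in DM3, with an exact permutation p of 0.229 (adjusted 0.557). For miR-296-3p in GM the difference was 1.74 points, with an exact permutation p of 0.657 (adjusted 0.657). With 4 against 4 libraries the smallest p is 0.0286. The test takes each library as a unit, although each group holds 2 lines with 2 replicates each. Its p does not separate the spread between lines from that between replicates. None of the 3 differences passed the test, and that of miR-298-5p in DM3 was larger than the SD of the tKO libraries and smaller than that of the control libraries.
The added bases differed between the arms. Among single added bases T made up 54.9% and A 34.8% for miR-298-5p, whereas C made up 55.1% and A 31.2% for miR-296-5p, of whose reads 19.9% carried added bases. For miR-296-3p, 36.9% of reads carried them, with A at 38.9% and T at 37.7%. Over all names the share was 26.5% to 44.9% per library.

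Few of the miRNAs taken as neighbours of the pair had enough reads to set beside it, and the rest of the chromosome was not examined. Of the 5 hairpins taken on the centromeric side, the 3 on the telomeric side and Mir133a-2, only miR-499-5p, miR-7003-3p and miR-133a-3p had enough reads for the test. Their clone 2 against clone 1 log2 fold changes were 0.32 (SE 0.74), 0.77 (SE 0.38) and 0.54 (SE 0.61), and edgeR called none of the 3, where it called 1.36% of all names. These hairpins lie 18.6, 11.2 and 6.13 Mb away, and miR-133a-3p also comes from a hairpin on another chromosome. The nearest hairpin of the RefSeq table, Mir6340, 0.566 Mb away, was not among the listed names, and miR-133a-3p was the nearest name tested. Mir1a-1, one of the hairpins deleted in tKO, also lies on this chromosome, 6.12 Mb away and next to Mir133a-2; its listed arm miR-1a-1-5p had 18 reads and was not tested.

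Other miRNAs of imprinted regions were counted as a group. Of 61 names of the H19, Igf2, Mest and Dlk1-Dio3 loci, 57 were listed and 14 had enough reads for the test. Between the clones edgeR called 0 of the 14 in either direction (1.36% of all names), with a median log2 fold change of -0.62 against -0.25 over all names, and a range of -2.48 to 0.69. The list does not hold every arm of these loci. It has miR-341-3p, of the Dlk1-Dio3 locus, which had 46 reads and was not tested, but not miR-341-5p of the same hairpin, which was called lower in clone 2 at -2.76 (SE 0.63). With differentiation, in control cells 5 of 14 were called higher in DM3 and 0 lower, with miR-675-3p, made from the H19 transcript, at 5.25 (SE 0.85), beside 15.9% of all names called higher. In tKO cells 2 of 14 were called higher, miR-675-3p at 5.43 (SE 0.85) and miR-483-3p, from an intron of Igf2, at 3.02 (SE 0.85), beside 11.4% of all names.

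Over the 16 libraries, the names with profiles nearest to each abundant arm were the other abundant arms of the pair. Distance was measured as the root mean square difference of log2(CPM + 1), each name centred on its mean, over the 16 libraries. It uses the levels by which the pair was chosen, with the low values of clone 2 known, so it describes the pair and tests nothing. The nearest name to miR-298-5p was miR-296-5p at 0.46, then miR-296-3p at 0.83, then miR-743b-5p, miR-465a-3p and miR-465c-3p at 1.13 to 1.147, against a median of 1.90 over 806 names. The nearest to miR-296-3p was miR-298-5p at 0.83. miR-298-3p had none of the pair among its nearest 5, which were led by miR-215-5p at 0.63. Over the 8 tKO libraries alone, miR-296-5p at 0.49 and then miR-296-3p at 0.99 were again nearest to miR-298-5p. miR-298-5p was also the nearest to each arm of miR-296 there, but neither of these arms was among the nearest 5 of the other. Next came miR-1895-3p at 0.87 for miR-296-5p and miR-1946a-5p at 1.06 for miR-296-3p.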

How the data were processed

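Small RNA libraries of 16 C2C12 cultures were analysed. The deposited values are expected counts: per the file headers the authors made 1 table per library that gives, for each miRNA name and sequence, its total reads and its reads with added 3′ bases, not normalized. Fractions in 0.625% of table lines show that some reads were divided. The submitters' processing notes name cutadapt 1.15, STAR 2.5.4 and the mm10 build; the version of unitas, named in the tables' names, and its miRBase release are not given in the sources used here.

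Reads were summed per name, after text in parentheses was removed. Of 2510 names, 236 that lacked a listed exact mature sequence were added to the mature name they match once a copy number or arm is dropped or an a suffix is supplied, giving 2274. Rounded sums of the 807 names that passed filterByExpr (minimum count 10) were tested with edgeR 4.0.16 in R 4.3.3, using TMM factors, the robust quasi-likelihood fit and Benjamini-Hochberg adjustment over all 807. All 16 libraries entered each fit, with a coefficient per group or per line and medium. The fit was checked on simulated counts. CPM are reads scaled to a library total of 1000000 listed reads. Wilson 95% intervals and the limit of 3 reads cover counting error only, since the reads carry no molecular identifiers. A read was counted as hairpin-matched when it had at least 16 nt, lay in a GENCODE M21 hairpin without mismatch and started within 3 bases of the mature start. Shares of reads with non-templated bases were compared where each library had at least 20 reads, by an exact permutation test over 70 assignments.

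The named miRNAs are the 4 arms, the 5 nearest profiles of each, names with the same seed, neighbours on the chromosome and a list from imprinted loci; the 8 other names called between the clones were added after their values were seen. The members, lists and comparisons were chosen with earlier results of these data known. Alternatives were other scalings, no filter, a DESeq2 1.42.0 Wald test, a replicate block, names as listed, sequences without mismatch, the hairpin match, each library left out and, chosen after seeing the data, a coefficient per line and medium for the comparison of media. The labels number the replicates of a line and say no more of how they were grown, so p-values measure the spread between these libraries.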

Additional observations from a re-analysis of the deposited data

Results flagged for a closer look

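Of 47 sets of 4 libraries examined for the arms' levels, shares and read starts, 4 held a library whose distance to its nearest neighbour passed Dixon's limit of 0.829 of the range. Chance passes this limit in about 1 in 20 sets of like libraries, but here it only selects values to show: levels and arm shares were used to choose the pair, and each tKO set mixes both clones. In control DM3, miR-296-5p stood at 411 CPM in population 1, replicate 1, against 101 to 123 CPM in the other 3 libraries. The same library had the lowest share of miR-296 reads on the 3p arm in that group, 38.9%, against 50.6% to 52.5%. In tKO DM3, miR-296-3p stood at 86.1 CPM in clone 1, replicate 2, against 4.62 to 17.7 CPM; the other clone 1 library is the shallow one with 2 reads, fewer than its 3-read limit, and the remaining libraries are those of clone 2, known to be low. In tKO GM, 77.5% of miR-296-3p reads started at the RefSeq base in clone 1, replicate 1, against 68.2% to 69.6%.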

How the results depend on the processing

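The clone 2 against clone 1 log2 fold changes of miR-298-5p, miR-296-5p and miR-296-3p ranged over 25 settings from -3.59 to -2.89, -3.40 to -2.62 and -3.84 to -2.29; the pair was chosen with this difference known, so the ranges describe the processing and test nothing. The weakest, -2.29, arose without the clone 1 DM3 library of replicate 2. Counts of names called moved more. In the order tKO against control in GM, in DM3, and clone 2 against clone 1 they were 9, 7 and 11; without the filter 15, 14 and 21, and with DESeq2's Wald test 19, 17 and 33. With sequences without mismatch the genotype counts were 15 and 20, and the control differentiation count was 136 in place of 223. With the hairpin match they were 18 and 18, the control differentiation count 119, and the difference of differentiation effects 1 in place of 0; fewer names were tested in both. Leaving out single libraries gave 5 to 16 names in GM, 5 to 53 in DM3, 0 to 1 for the difference of differentiation effects and 5 to 90 between the clones. The 53 arose without the shallow clone 1 DM3 library and the 90 without the other clone 1 DM3 library, and the 5 between the clones without the clone 2 GM library of replicate 1; with 1 library left, its spread is assumed to be that of the others. The causes were not tested.

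With a replicate block, 20 names were called between the clones, among them all 11 called without it, and no call of the 4 arms changed. Replicate numbers were not taken as pairs, since not every pair with the same number deviated together: the correlation of the deviations averaged 0.101 over 48 pairs with the same number, from -0.46 to 0.64, and -0.095 over 48 with different numbers. The share of miR-296-3p reads with non-templated bases in GM turned to -0.82 points without the clone 2 library of replicate 2 (range -0.82 to 4.49); it was not called in any setting. Of 892 values under other settings, 852 kept their direction and side of the threshold or, for counts of names, stayed within 1.5 times. Few reads limit clone 2's shares, which rest on as few as 9 reads, in libraries of 736900 to 5992408 reads. They also limit miR-298-3p, of which 5 or fewer reads matched the hairpin in each replicate 1 library. In the replicate 2 libraries 6 or fewer matched it, except in control GM with 22 and 17.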
